A study of Mus musculus with 4 samples.

Results

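The Gnas imprinted locus was examined in the prefrontal cortex of mice whose parental alleles can be told apart by sequence. Its members were the rows named Gnas and Nespas in the RNA-seq tables, 2 of 46320 gene identifiers. A further 7 genes listed in the same 0.2 Mb window of chromosome 2 (mm10) served as context, along with the 8 methylation regions listed there, out of 1600 listed regions with levels. The mice were female C57BL6J/Spretus F1 animals, 14 weeks old, and all of them carried a mutation of the long noncoding RNA gene Xist on the maternal allele. There was no group without that mutation. Each RNA library was made from tissue pooled over individuals of separate litters, and there were 2 libraries each for RNA-seq and for MethylC-seq, a bisulfite method that reads methylated cytosines. The comparison within each library was the Spretus allele against the C57 allele. Following the order of the strain label, Spretus is taken as the father's and C57 as the mother's strain. Xist, whose maternal copy is mutated, had 2158 reads from Spretus and 31 from C57 in library 1, with 795 from Spretus and 9 from C57 in library 2. As the cross ran in 1 direction, a difference between strains and a difference between parents cannot be told apart.

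Gnas encodes the alpha subunit of the stimulatory G protein, Gs-alpha, which couples hormone and neurotransmitter receptors to adenylyl cyclase and so to cyclic AMP. Alternative starts joined to shared downstream exons give further products. NESP, a secretory granule protein, is known to come from the maternal allele. XLalphas, a long variant of Gs-alpha, the noncoding exon 1A transcript and the antisense RNA Nespas are known to come from the paternal allele. Gs-alpha itself comes from both alleles in most tissues and mainly from the maternal allele in a few, among them proximal kidney tubule and pituitary. In mouse the maternal allele is known to be methylated at the Nespas and XLalphas starts and at exon 1A, and the paternal allele at NESP.

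RefSeq gave 4 start windows for Gnas on GRCm38.p6, the assembly behind mm10, each from 250 bases before a transcript start to 50 after it. The windows at NESP, at the first of the exon 1A starts and at Gs-alpha are printed because the methylation regions lie at or between these starts. They run 5′ to 3′ on the plus strand, and capitals mark each CG dinucleotide, the main target of methylation in mammals. The names of the starts are taken from the known order of the locus, since the RefSeq table does not name them.
NESP start, chr2:174284070-174284369: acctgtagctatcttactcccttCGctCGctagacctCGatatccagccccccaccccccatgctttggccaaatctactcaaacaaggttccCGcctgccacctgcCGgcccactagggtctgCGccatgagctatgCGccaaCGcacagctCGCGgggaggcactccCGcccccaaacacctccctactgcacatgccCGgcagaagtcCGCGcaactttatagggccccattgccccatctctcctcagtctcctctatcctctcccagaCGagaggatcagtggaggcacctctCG
exon 1A start, chr2:174327499-174327798: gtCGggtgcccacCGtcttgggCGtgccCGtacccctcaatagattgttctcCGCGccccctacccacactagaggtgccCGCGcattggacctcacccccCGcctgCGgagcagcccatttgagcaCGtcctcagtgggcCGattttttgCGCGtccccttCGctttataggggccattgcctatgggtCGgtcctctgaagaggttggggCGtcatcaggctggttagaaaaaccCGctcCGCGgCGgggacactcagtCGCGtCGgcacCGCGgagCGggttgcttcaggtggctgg
Gs-alpha start, chr2:174329756-174330055: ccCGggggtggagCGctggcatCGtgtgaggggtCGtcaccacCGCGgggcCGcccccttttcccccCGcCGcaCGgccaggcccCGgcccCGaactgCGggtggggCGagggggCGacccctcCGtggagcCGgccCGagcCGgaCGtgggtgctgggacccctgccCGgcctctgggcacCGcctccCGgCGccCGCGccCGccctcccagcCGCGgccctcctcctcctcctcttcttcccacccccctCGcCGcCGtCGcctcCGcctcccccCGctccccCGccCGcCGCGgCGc
The Gs-alpha window held 40 CG dinucleotides, the exon 1A window 27 and the NESP window 16, against a median of 7 over 32851 RefSeq start windows of the same length. At least as many were found in 3.91%, 15.5% and 33.0% of all windows in that order. CG reads the same on both strands.

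Reads of Gnas came in about equal numbers from the Spretus and the C57 allele. Gnas (ENSMUSG00000027523.18, chromosome 2, 174284320 to 174346744) had 196 reads from Spretus and 180 from C57 in library 1, with 90 from Spretus and 99 from C57 in library 2. The Spretus count was the higher in library 1 and the lower in library 2. The Spretus share was 52.1% in library 1 (exact Clopper-Pearson 95% interval 46.9 to 57.3%) and 47.6% in library 2 (40.3 to 55.0%), with a mean of 49.9% ± 3.19 (SD, n = 2). Over all autosomal reads the share was 47.9% in library 1 and 48.0% in library 2, which lie inside the intervals of Gnas. The log2 ratio of Spretus over C57 was 0.10 (SE 0.35, adjusted p = 0.939) in the edgeR quasi-likelihood F-test (Benjamini-Hochberg), with a 95% interval of -0.66 to 0.87. That planned test left out the pairing of the 2 alleles within a library, so its SE also takes in differences between libraries. With the library as a block, which keeps the pairing, the interval was narrower, -0.05 to 0.38 (SE 0.11, adjusted p = 0.349, same test). The planned test called 5.43% of 11584 autosomal genes, and the blocked one 22.5%. The row joins all transcripts of the gene, so shares of NESP, XLalphas, exon 1A and Gs-alpha cannot be told apart in it.

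**Figure D1:**
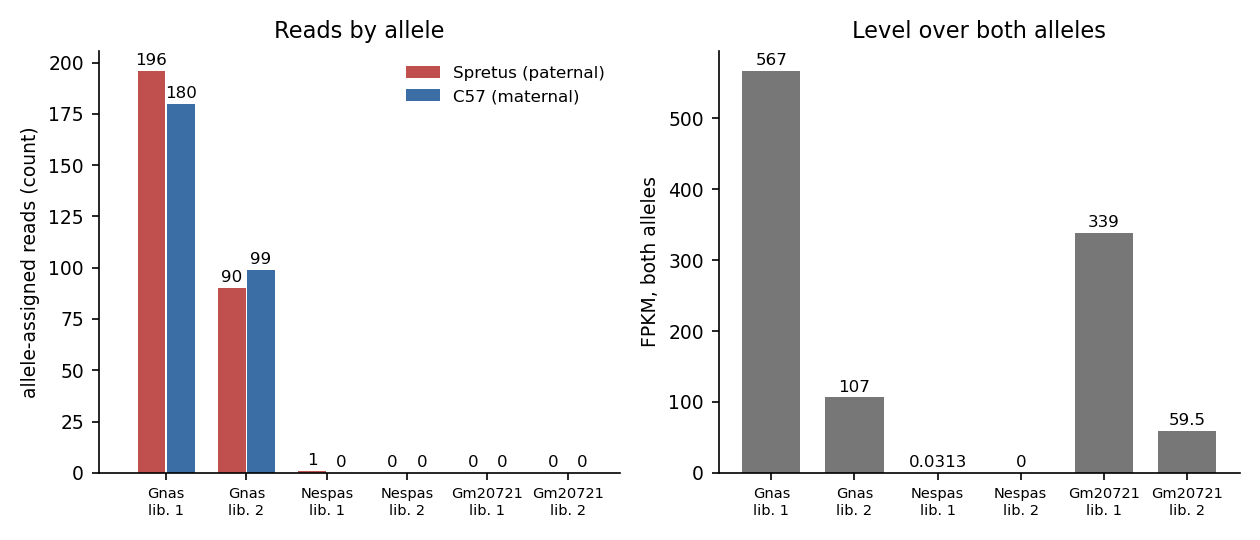
Left, allele-assigned reads per library for Gnas, Nespas and the overlapping Gm20721, Spretus beside C57. Right, FPKM over both alleles for the same genes. Bars are single library values. Gnas has 196 Spretus and 180 C57 reads in library 1, while Gm20721 has 0 of either at 339 FPKM.

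Gnas was among the most abundant genes of the tissue, while its allele-assigned reads ranked lower. In FPKM, a length-scaled level that counts both alleles, it stood at 567 in library 1 and 107 in library 2, rank 78 and rank 77 of 42106 autosomal genes. FPKM did not share a scale between the libraries, with a median ratio of library 1 over library 2 of 5.82 over 14619 genes. Levels in FPKM are therefore read within a library. By allele-assigned reads Gnas ranked 3833 and 1659. Among the 137 other autosomal genes within 2-fold of its FPKM in library 1 the median gene had 263 allele-assigned reads (quartiles 5 and 1121), and 27 had 0. The 376 reads of Gnas lay between that median and the upper quartile. These genes were not matched for length, so they do not show whether reads of Gnas are missing. In library 2 the median was 115 reads over 124 such genes, against 189 for Gnas.

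Gm20721 (ENSMUSG00000090625.1, 174330319 to 174346712) lies wholly inside the span of Gnas, beginning just after the Gs-alpha start, and covers 26.3% of it. That part is nearly all of the stretch from the Gs-alpha start at 174330006 to the end of Gnas at 174346744. Gm20721 had 0 allele-assigned reads in both libraries at 339 and 59.5 FPKM, which is 59.7% and 55.8% of the FPKM of Gnas. Of 150 autosomal genes at or above its FPKM in library 1, 41 had no allele-assigned read in either library. The tables do not say where in Gnas its allele-assigned reads lay. Whether reads in the shared span were left out of the counts of both genes was not tested, and the FPKM values of the overlapping genes cannot be assigned to each alone.

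The libraries differed in how much of their allele-assigned reads Gnas held. Per 1000000 such reads it had 78.9 in library 1 and 146 in library 2, a ratio of library 2 over library 1 of 1.86. The median over 11584 autosomal genes was 0.905, and 99.6% of them had a lower ratio than Gnas. FPKM of Gnas lay closer to the median gene. The median ratio of library 1 over library 2 was 5.82 in FPKM, with 5.32 for Gnas and 5.69 for Gm20721. Which reads of Gnas made up the difference is not in the tables.

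Nespas, the antisense RNA, was at the limit of detection. It is listed at 174281237 to 174295436 (ENSMUSG00000086537.6) and shares 11117 bases of its span with Gnas. Library 1 had 1 Spretus and 0 C57 reads, and library 2 had 0 of either. The FPKM was 0.0313 in library 1 and listed at 0 in library 2. A share from 1 read has an exact interval of 2.50 to 100%, so the counts do not place Nespas on an allele, and it did not pass the filter of 10 reads in each library. Only Gnas, 1 of the 2 members, was therefore tested. Among the context genes, the microRNA genes Mir296 and Mir298 and the short genes Gm27591, Gm27899, Gm27869 and Gm27849 had 0 reads in both libraries and were listed at 0 FPKM.

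The methylation difference between the alleles at the NESP start was opposite in direction to that at the Nespas and exon 1A starts. Listed regions are those called as differentially methylated, so a difference in each follows from the listing. It cannot be set against the reads, which were not chosen that way. The authors' list held 8 regions between 174283267 and 174328492, a stretch of 45225 bases, and all lay in the listed span of Gnas or Nespas. Of these, 2 were higher on Spretus and 6 higher on C57. The regions higher on Spretus covered 3523 bases and those higher on C57 3374 bases. Levels are fractions from 0 to 1 with no coverage or replicate spread, so they are given as a description.

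The regions higher on Spretus lay at the NESP start. One at 174283267 to 174284657 had a level of 0.899 on Spretus and 0.0681 on C57, and it holds the whole NESP window printed above with its 16 CG dinucleotides. The other, at 174285370 to 174287503, had 0.908 on Spretus and 0.00588 on C57 and begins 1050 bases after the listed start of Gnas. Both also lie inside the span of Nespas, far from its start.

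Regions higher on C57 began at the Nespas start, which lies on the opposite strand at the high end of its span. The first, at 174294261 to 174294883, had 0.0808 on Spretus and 0.893 on C57 and ends 553 bases inside Nespas. The next, at 174295483 to 174296099, had 0 on Spretus and 0.931 on C57 and begins 47 bases beyond the Nespas start. Further along, the region at 174296763 to 174297526 had 0 on Spretus and 0.910 on C57. A short one of 58 bases at 174300567 to 174300625 had 0 on Spretus and 0.954 on C57. On Spretus 3 of these 4 regions thus had no methylation listed, while on C57 all 4 stood near 0.9 or above. No further region was listed for 25798 bases.

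The last regions lay on each side of the exon 1A start. The region at 174326423 to 174327601 had 0.175 on Spretus and 0.936 on C57. It covers 103 bases of the exon 1A window printed above, with 9 of its 27 CG dinucleotides, and ends 148 bases before that start. At 0.175 it had the highest Spretus level of the regions higher on C57 and, at 0.761, the smallest difference at the locus. A region of 137 bases at 174328355 to 174328492 had 0.0116 on Spretus and 0.980 on C57, the largest difference at 0.968. It ends 1514 bases before the Gs-alpha start. No listed region reached the Gs-alpha window, which lies 1264 bases from the nearest one, or the span of Gm20721. The levels of sequence outside the listed regions are not known.

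**Figure D2:**
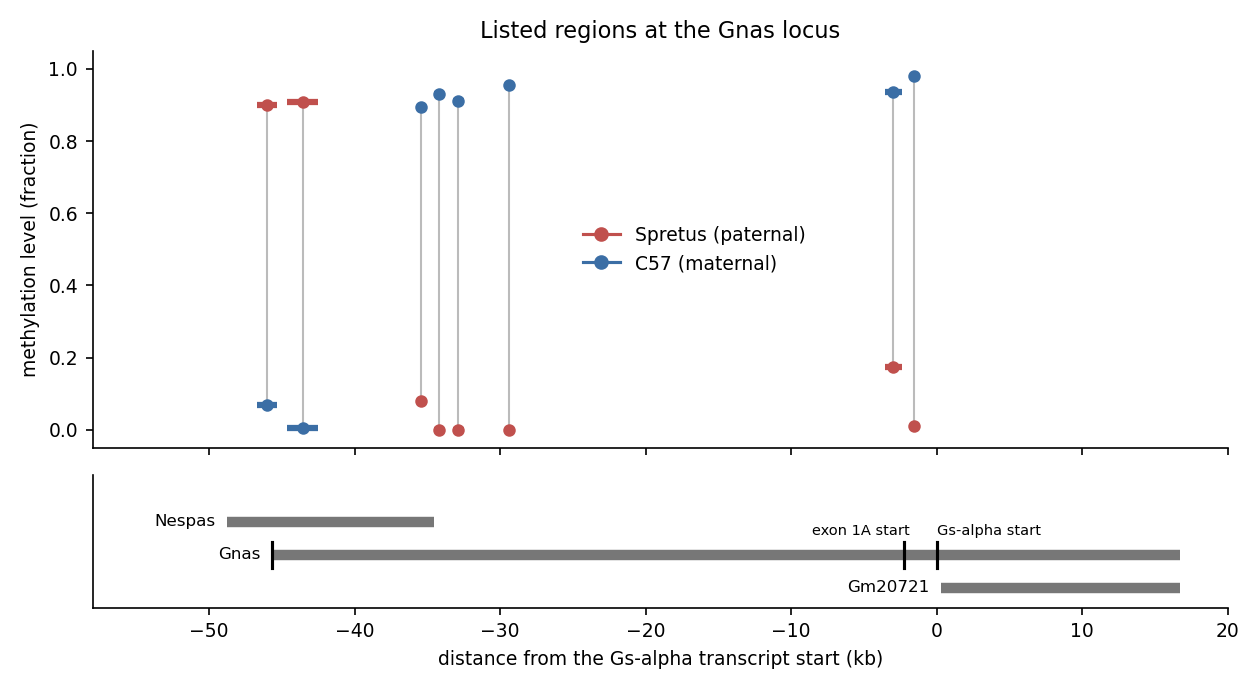
Top, methylation level (fraction) of each listed region on Spretus and on C57 against the distance from the Gs-alpha start in kb. Thick lines span the region and grey lines join its alleles. Bottom, the listed spans of Nespas, Gnas and Gm20721, with black ticks at the NESP (left end of Gnas), exon 1A and Gs-alpha starts. Spretus is the higher allele in the 2 leftmost regions and C57 in the other 6.

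Of the 8 regions, all but the one of 58 bases were longer than the median of the list. Of 1006 autosomal regions, 26.6% were higher on Spretus and the median length was 76.5 bases, against 692.5 bases at the Gnas locus. The longest Gnas regions ranked 9 and 18 by length, both higher on Spretus, and the exon 1A region ranked 21. All 8 differed by at least 0.761, above the median absolute difference of 0.747 over autosomal regions. Of the 8 regions, 6 were at least 200 bases long. Among the 361 autosomal regions of that length, 41.6% were higher on Spretus and the median absolute difference was 0.569. Chromosome 2 held 74 regions, and the next one on it lay 2483 kb away on the low side and 199.8 kb away on the high side, where the region is 8 bases long.

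Among the 229 autosomal regions of at least 200 bases that differed by at least 0.5, those within 50 kb of each other were joined, which gave 201 groups. Of these, 14 held at least 2 regions. The Gnas group came second by number with 6 regions, after the group at Zdbf2, a paternally expressed imprinted gene, with 8. All 8 regions at Zdbf2 were higher on Spretus, whereas at Gnas 2 were higher on Spretus and 4 on C57. Only 2 groups held both directions. The other lay at the zinc finger gene Zfp93 on chromosome 7, with 1 region higher on each allele.

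**Figure D3:**
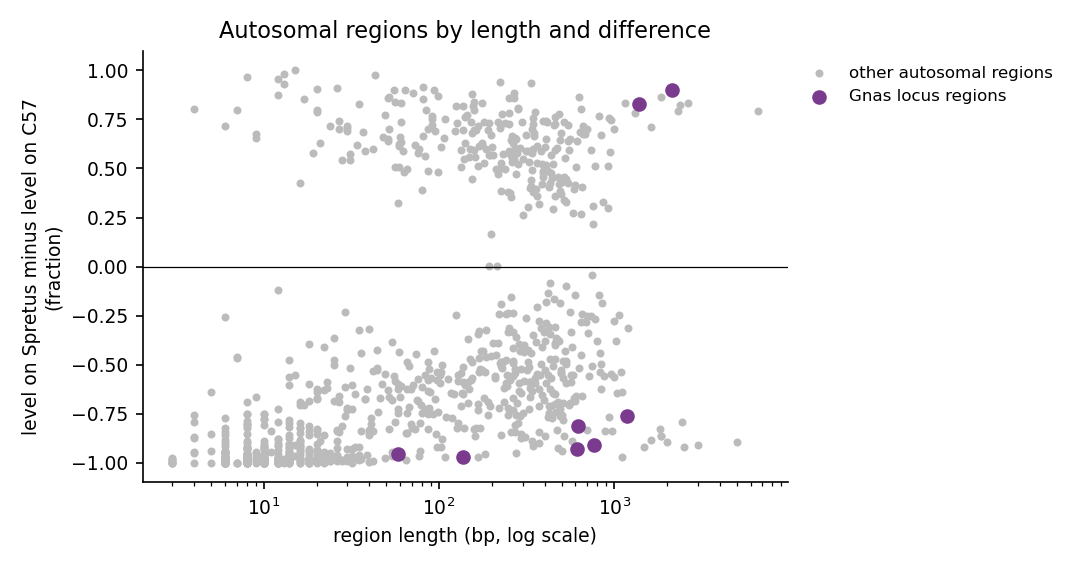
Level on Spretus minus level on C57 (fraction) against region length (bp, log scale) for 1006 autosomal regions, 1 point per region, with the 8 regions of the Gnas locus in purple. The 2 Gnas regions above 0 are among the longest of the list, and the other 6 lie between -0.761 and -0.968.

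Genes around the locus mostly drew on both alleles. Within 1 Mb of the window 55 other genes were listed and 13 passed the filter, of which 1 was called, against 5.43% of autosomal genes. That gene was Atp5e, which encodes the epsilon subunit of mitochondrial ATP synthase, 114 kb from Gnas. Atp5e had 23 reads from Spretus and 62 from C57 in library 1, with 2 from Spretus and 13 from C57 in library 2. Its log2 ratio was -1.46 (SE 0.36, adjusted p = 0.0264) in the edgeR quasi-likelihood F-test (Benjamini-Hochberg). C57 was the higher allele in both libraries. DESeq2, which called 2.20% of autosomal genes, did not call it. With the library block Gm14443 was called too, also toward C57. No methylation region was listed between Gnas and Atp5e.

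Of the 4 nearest tested neighbours on each side, Atp5e was the 1 called. On the high side, Nelfcd, a subunit of the negative elongation factor, had 104 reads from Spretus and 129 from C57 in library 1, with 21 from each in library 2. Ctsz, which encodes the lysosomal protease cathepsin Z, had 123 reads from Spretus and 115 from C57 in library 1, with 30 from Spretus and 31 from C57 in library 2. Slmo2 had a Spretus share of 40.9% ± 0.639 (SD, n = 2). On the low side, the shares were 50.2% ± 18.0 for the aminopeptidase gene Npepl1, 43.1% ± 0.753 for the syntaxin gene Stx16, 45.3% ± 1.45 for Vapb and 49.8% ± 1.35 for the small GTPase gene Rab22a (SD, n = 2 each). Npepl1 is the least certain, with 51 reads from Spretus and 30 from C57 in library 1, beside 6 from Spretus and 10 from C57 in library 2.

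**Figure D4:**
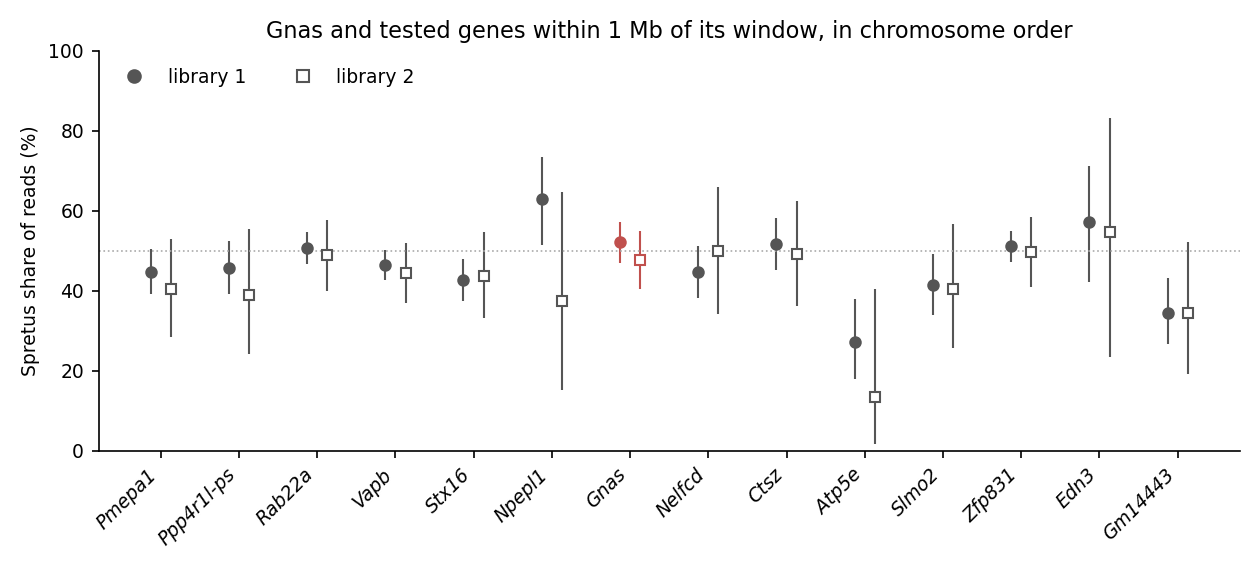
Spretus share of reads (%) in library 1 (filled circles) and library 2 (open squares) for Gnas (red) and the 13 tested genes within 1 Mb of its window, in chromosome order. Bars are exact 95% intervals. Gnas lies at 52.1% and 47.6%, while Atp5e is low in both libraries at 27.1% and 13.3%.

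Gnas was also set beside other imprinted host genes that hold or overlap a paternally expressed transcript. These 9 pairs were listed because they are known to be imprinted, so their direction is background. Of 8 tested hosts 5 were called toward C57, against 3.04% of autosomal genes, and of 7 tested paternal transcripts 7 were called toward Spretus, against 2.39%. With a summed Spretus share of 50.6% (exact interval 46.4 to 54.8%), Gnas lay above the called hosts. Their mean shares were 12.8% ± 1.19 for the ubiquitin ligase gene Ube3a, 22.7% ± 7.10 for Commd1, 29.7% ± 2.19 for Copg2, 31.8% ± 3.99 for Trappc9 and 33.5% ± 1.30 for the signal peptide peptidase gene H13 (SD, n = 2 each). DESeq2 called 2 of the hosts and not Commd1, Copg2 and H13. Like Gnas, the hosts Blcap, Herc3 and Igf2r were not called, at 48.1% ± 2.70, 45.5% ± 0.783 and 45.2% ± 3.96 (SD, n = 2 each). Whether Gnas differs from any of these hosts was not tested.

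The paternal transcripts of the other pairs all had more reads than Nespas. Kcnq1ot1, an antisense RNA like Nespas, had 2629 reads from Spretus and 36 from C57 in library 1, with 530 from Spretus and 10 from C57 in library 2. Snhg14, the transcript that runs antisense to Ube3a, had 1299 reads from Spretus and 10 from C57 in library 1, with 404 from Spretus and 2 from C57 in library 2. Mean Spretus shares of the tested paternal transcripts Kcnq1ot1, Snhg14, Peg13, Mest, Nap1l5, Nnat and Zrsr1 ran from 91.3% to 99.7%. Closest to Nespas in depth was Airn, the antisense RNA of Igf2r, with 19 reads from Spretus and 0 from C57 in library 1, beside 5 from Spretus and 0 from C57 in library 2. Mcts2, which lies within H13, was not tested either and had 18 reads from Spretus and 9 from C57 in library 1, with 6 from Spretus and 1 from C57 in library 2. Its mean Spretus share of 76.2% ± 13.5 (SD, n = 2) was below the range of the tested transcripts.

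**Figure D5:**
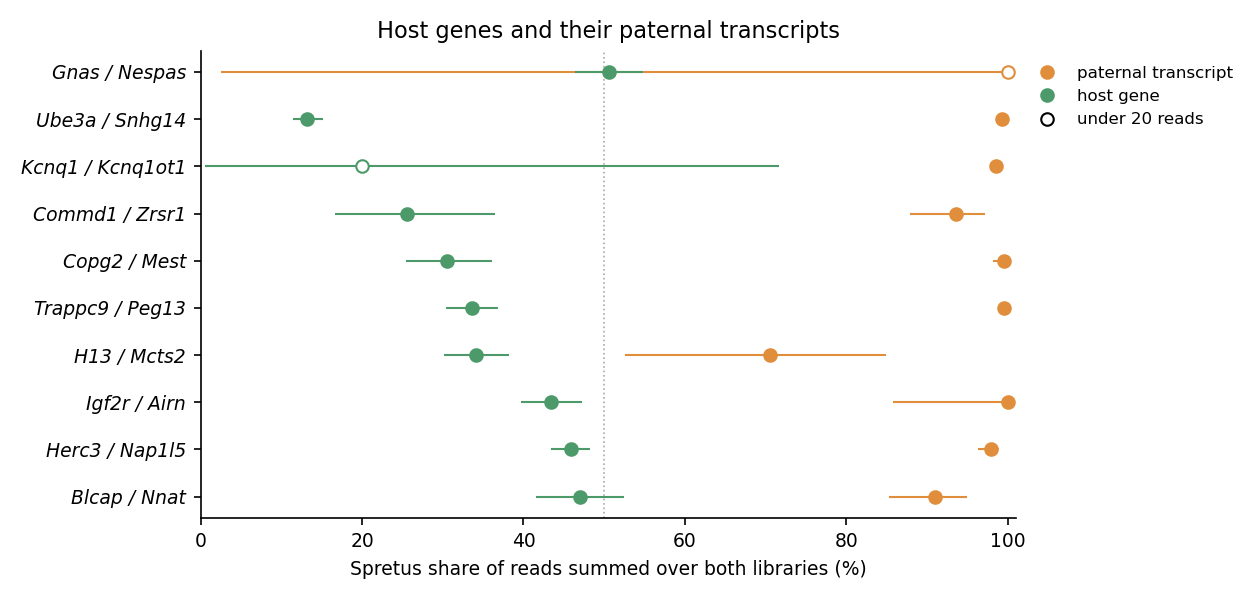
Spretus share (%) of reads summed over both libraries for host genes (green) and their paternal transcripts (orange), with exact 95% intervals. Open symbols have under 20 reads. Gnas is at 50.6%, beside hosts from 13.2% to 47.0%, and the single Nespas read leaves an interval from 2.50 to 100%.

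How many genes were called in the pathway that Gs-alpha serves depended on the fit. Of 94 listed genes of the Gs and cyclic AMP pathway 70 were tested. In the planned fit 2 of the 70 were called (2.86%), 1 in each direction, against 5.43% of autosomal genes. Their median log2 ratio was -0.02, beside 0.02 over all autosomal genes tested. Adcy7, one of the adenylyl cyclases that make cyclic AMP, had 65 reads from Spretus and 28 from C57 in library 1, with 16 from Spretus and 7 from C57 in library 2 (log2 ratio 1.33, SE 0.30, adjusted p = 0.0156 in the edgeR quasi-likelihood F-test (Benjamini-Hochberg)). Pde1c, a phosphodiesterase gene whose product breaks cyclic nucleotides down, had 20 reads from Spretus and 52 from C57 in library 1, with 4 from Spretus and 12 from C57 in library 2 (log2 ratio -1.28, SE 0.32, adjusted p = 0.0273, same test). For each of these genes the same allele was higher in both libraries. With the library block 18 pathway genes were called, 25.7% of those tested against 22.5% of autosomal genes, and DESeq2 called 0, with 4 at an unadjusted p under 0.05. With 1 total per library for both alleles 3 were called, all toward C57, and Adcy7 was not among them.

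Among pathway genes with the most allele-assigned reads, none was called in the planned fit. The cyclase gene Adcy1 had a Spretus share of 49.4% ± 1.28, the protein kinase A regulatory subunit genes Prkar1b and Prkar1a 49.5% ± 0.328 and 44.4% ± 1.30, and the phosphodiesterase gene Pde1a 46.0% ± 2.23 (SD, n = 2 each). The blocked test called Prkar1a toward C57 (log2 ratio -0.17, adjusted p = 0.0271, edgeR quasi-likelihood F-test). Of the 10 tested genes of G protein alpha subunits other than Gnas, the lowest share was that of Gnal, the close relative of Gs-alpha known from striatum and olfactory epithelium. Gnal had 490 reads from Spretus and 732 from C57 in library 1, with 114 from Spretus and 217 from C57 in library 2, with a log2 ratio of -0.62 (SE 0.20, adjusted p = 0.0953 in the edgeR quasi-likelihood F-test (Benjamini-Hochberg)). C57 was the higher allele in both libraries, and the blocked test called it toward C57 (log2 ratio -0.52, adjusted p = 1.31e-07, same test). It was also called toward C57 with 1 total per library for both alleles. Gnal was named after its values were seen. In FPKM, a level per length, Gnas stood above each listed alpha subunit, the next being Gnao1 of the Go protein at 189 in library 1 and 48.4 in library 2.

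Spretus shares near those of the Gnas row were common. A near-equal share of the joined row does not show that each of its transcripts came from both alleles. Of 1533 other autosomal genes with 200 or more allele-assigned reads per library, 696 (45.4%) had a pair of Spretus shares within 5 percentage points of those of Gnas, measured as the Euclidean distance over the 2 libraries. Gnas itself, with 189 reads in library 2, was below that limit of 200. The nearest were Clcn6, Usp32, Dlgap2, Uhrf1bp1l and Wdr47, at distances of 0.244 to 0.605 points. Clcn6, a chloride transporter gene on chromosome 4, had shares of 52.3% in library 1 and 47.4% in library 2.

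RNA library 1 held 4768237 allele-assigned reads and library 2 held 1291903. Median FPKM of the neuron, glia and endothelium lists ran from 10.8 to 455 in library 1 and from 1.90 to 107 in library 2. The median of the choroid plexus list was 1.27 in library 1 and 0.263 in library 2. The pituitary list had 0.490 in library 1 and 0.128 in library 2, and no marker was at 0. Depth behind the methylation levels is unknown. In bulk tissue, fewer cells of a type and less RNA per cell cannot be told apart.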

How the data were processed

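RNA-seq and MethylC-seq were made from mouse prefrontal cortex, with 2 libraries each. The RNA kit marks strand and followed a ribosomal RNA depletion, per the labels' protocols. Per the submitters' processing notes, the build was mm10 and the tools included HTSeq 0.6.0, TopHat2 2.0.9, bedtools 2.2.4 and Cufflinks 2.1.1, with no role given. How reads were given an allele, the annotation and any use of strand in counting are not given, and overlapping or antisense genes are therefore uncertain. The authors deposited raw counts of reads per allele and 1 FPKM value per gene, per the file headers. For methylation the authors deposited a list of 1613 differentially methylated regions with a level per allele as a fraction. Of these, 13 had no levels. Caller settings, cytosine context, coverage and pooling are not given either.

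Counts were tested with edgeR 4.0.16 (R 4.3.3), glmQLFit and glmQLFTest, TMM scaling and allele as the only term, over genes with 10 or more allele-assigned reads per library. Benjamini-Hochberg adjustment ran over every tested gene, and calls had an adjusted p under 0.05. The script was tested on simulated data. DESeq2 1.42.0, RLE scaling, a shared library total, no filter, the library block and each library alone were alternatives. Both alleles of a library stem from 1 RNA sample, so library numbers pair the columns, whose deviations had a correlation of 0.602 over 7565 autosomal genes. The planned test did not use this pairing, and the library block did. The median autosomal log2 ratio was 0.02, and -0.11 with a shared total, which took the share of calls toward C57 to 69.7% from 56.0%. Intervals of shares are exact Clopper-Pearson at 95% (scipy 1.17.1) and cover counting error only. Those of the log2 ratio, also at 95%, come from its SE and a t quantile. The SE in edgeR was derived from the log2 ratio and its F statistic. As the labels do not say that the libraries came from different animals, p-values reflect only how these libraries vary, and that variation may be technical. Of 46320 identifiers 45815 matched a table of names, and 49 listed at more than 1 locus were used once. Gene coordinates count from 1, and region coordinates are as listed. Start windows are from RefSeq (GRCm38.p6).

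Named genes were the members, all genes of the window, the nearest 4 tested neighbours on each side, called genes of each list, the 4 list members with most reads and the 5 genes nearest to Gnas in share. Airn, Mcts2, Blcap, Igf2r, Gm14443, Gnao1, Gnal, Zdbf2 and Zfp93 lie outside this rule and were named after their values were seen. Members, lists and rules were chosen with earlier results of these data known.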

Additional observations from a re-analysis of the deposited data

How the results depend on the processing

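Gnas was not called under any alternative run. Its log2 ratio of Spretus over C57 was -0.017 with 1 total per library for both alleles, against 0.10 in the planned fit, and from -0.025 to 0.26 with either library alone, which allowed no test. Its Spretus share ranged from 47.6% to 52.1% with either library alone. RLE scaling and the fit without a filter kept the sign. With the replicate block on the library, Gnas had a log2 ratio of 0.16 (adjusted p = 0.349 in edgeR). Without a filter both members, 2 genes, were tested, and the 1 read of Nespas gave a log2 ratio of 2.38 (SE 2.89, adjusted p = 0.723 in edgeR).

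Autosomal calls numbered 629 in the planned fit, 1290 without a filter, where more genes are tested, 255 with DESeq2 and 2603 with the replicate block. Calls among the flanking genes went to 0 with DESeq2 (1 at an unadjusted p under 0.05) and 2 with the block, where Gm14443 joined Atp5e. Pathway calls went to 0 with DESeq2 (4 at an unadjusted p under 0.05) and 18 with the block, and imprinted host calls to 2 with DESeq2. Apart from the shared total, the cause of these changes was not tested. The counts of 8 methylation regions, 2 higher on Spretus and 6 higher on C57, could not change under 2 of the settings. All 8 already had a difference of at least 0.5 and lay within the listed spans of the members. With a length of at least 200 bases 6 remained, 2 and 4. Nespas had 1 read, and with 2 libraries the spread between replicates is poorly known.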
